A study of Homo sapiens with 4 samples.

Results

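RNA abundance of 8 genes that carry the insulin signal from the receptor to the nucleus was compared between 2 groups of U87 cells, an established human glioma line. The genes were taken by name from the 57820 rows of the deposited table: the insulin receptor substrate genes IRS1 and IRS2, the phosphoinositide 3-kinase (PI3K) genes PIK3CA, PIK3CB and PIK3R1, the kinase gene AKT1 and the forkhead transcription factor genes FOXO1 and FOXO3. Each symbol had 1 row, and all 8 were among the 14616 genes with enough counts to be tested. One group carried a short hairpin RNA against GLUD1, the gene of mitochondrial glutamate dehydrogenase, and is called shGlud1 in the labels. The other carried the hairpin called shNT, whose samples are labelled control. There were 2 libraries in each group. Both groups had spent 6 h in low glucose before RNA was taken, and the protocol's maintenance medium held 10% bovine calf serum. The labels give 1 hairpin name a group and do not say whether the cells were pools or clones. Nor do they call the replicates separate cultures. The p-values therefore reflect the spread between libraries alone, and that spread may be technical. In bulk RNA, fewer cells of a kind and less RNA per cell cannot be told apart.

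Insulin and insulin-like growth factors act through receptor tyrosine kinases that phosphorylate IRS proteins. These docking proteins recruit PI3K, a dimer of a catalytic subunit (p110alpha from PIK3CA, p110beta from PIK3CB) and a regulatory subunit (p85alpha and shorter forms from PIK3R1), and the lipid that PI3K makes brings AKT to the membrane to be activated. AKT phosphorylates FOXO factors and keeps them out of the nucleus, and when the signal is low FOXO factors enter it and switch on genes that include upstream members of the same pathway. All of this concerns proteins, while the values here are levels of RNA.

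Of the 8 genes, 5 rose in the shGlud1 libraries and 0 fell. IRS1 and PIK3R1 rose most, by 3.76-fold and 3.50-fold, followed by PIK3CB, FOXO3 and PIK3CA. IRS2, AKT1 and FOXO1 did not pass the test. A gene was called changed at an adjusted p under 0.05 in edgeR's quasi-likelihood test, with Benjamini-Hochberg adjustment over all genes tested. By that rule 61.0% of all genes changed, 31.9% upward and 29.1% downward, so a called rise is common in this comparison. Each of the 8 has a longest annotated transcript in the longest of 5 equal groups by length (from 5701 bases), and in that group 56.1% of genes rose and 9.15% fell. The count of 5 in 8 (62.5%) lies near that background. The median log2 fold change was 1.13 over the 8 genes, 0.63 over that length group and 0.06 over all genes tested. By the isoform annotated as its main one, AKT1 lies in length group 4 of the 5 instead. In CPM, 6 of the 8 were higher in both shGlud1 libraries than in both shNT libraries, against 42.8% of all genes, and 1 was lower in both, against 38.2%.

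The count moved with the scaling. Under total counts all 8 rose, where 51.9% of all genes rose and 13.7% fell. With the trend on longest transcript length removed 4 rose and 1 fell, against 26.9% and 28.7% of all genes. Removing length and GC trends left 3 rises and 1 fall (background 27.3% and 28.2%). The trend on the principal transcript, the isoform annotated as the main one, gave 4 and 1 (26.7% and 28.4%), and that on the median transcript gave 4 and 2 (28.9% and 29.5%).

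The 4 libraries held between 16546849 and 18537314 expected counts, and levels are given as CPM, each gene's share of its library's counts after scaling with TMM factors. The hairpin's target GLUD1 was lower in both shGlud1 replicates (34.0 and 44.5 CPM) than in both shNT replicates (78.1 and 76.5 CPM), with an edgeR adjusted p of 1.26e-12 and a log2 fold change of -0.98. Scaled by total counts alone the median log2 fold change of all genes was 0.57 in place of 0.06, which raises every value below by about that shift. Fold change also followed the length of the longest transcript (Spearman correlation 0.447 across 14266 genes, which are not independent replicates), from a median log2 fold change of -0.61 in the shortest length group to 0.63 in the longest. The ratio of shGlud1 replicate 2 to replicate 1 followed length too (0.338), and that of the shNT libraries hardly did (0.037). The part of length in the results was not tested apart from removing a smooth trend, whose values are given for each of the 8 genes. Of the fixed line markers VIM, NES, CD44, TNC, CHI3L1 and SPARC, 3 of 6 rose, and they summed to 4050 and 3750 CPM in shNT against 6250 and 6800 CPM in shGlud1. The astrocyte markers GFAP (2 to 6 counts) and AQP4 (0 in all libraries) were near absent, as were PTPRC (0 or 1 count), AIF1, MOG and STMN2 (0 in all libraries) of other cell types. Others on the same lists were detected, among them ALDH1L1 (21 to 29 counts), SYT1 (58 to 119) and KRT8 (421 to 508). CD14 had 39 and 42 counts in shNT and 1 and 12 in shGlud1. RBFOX3 and MBP were called as higher, and CD68, CD14, KRT8 and KRT18 as lower. Summed oligodendrocyte markers, almost all MBP, ran from 3.92 to 5.49 CPM in shNT and from 8.17 to 10.2 CPM in shGlud1, and neuron markers from 5.23 to 5.79 and from 7.65 to 8.59 CPM. Immune markers, almost all CD68, ran from 360 to 401 and from 276 to 290 CPM, astrocyte markers from 2.02 to 2.34 and from 1.40 to 1.61 CPM, epithelial markers from 36.3 to 38.4 and from 19.3 to 23.9 CPM, and endothelial markers from 0.588 to 0.659 and from 0.550 to 0.608 CPM. The part of these genes in the results was not tested.

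**Figure D1:**
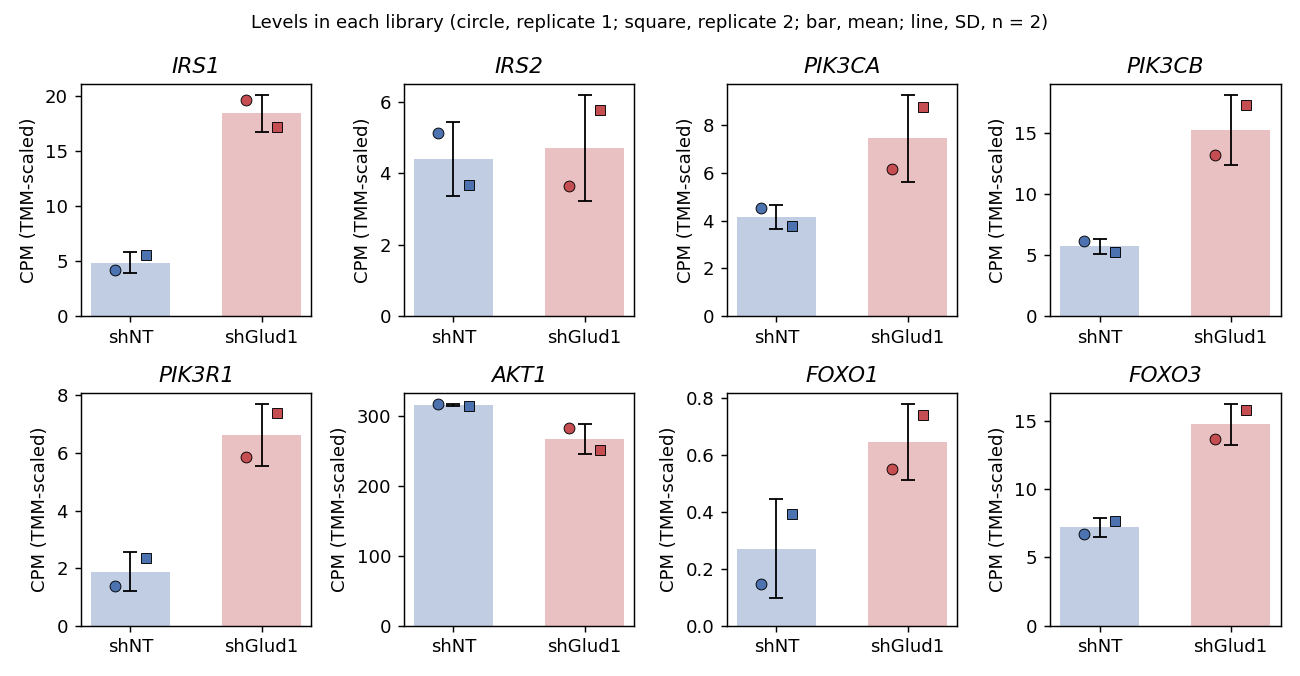
Level of each of the 8 genes in every library, in CPM on a linear axis from 0, for shNT (blue) and shGlud1 (red). Circles are replicate 1, squares replicate 2, bars the mean and lines the SD (n = 2). The groups overlap for IRS2 alone, AKT1 is lower in both shGlud1 libraries, and the other 6 genes are higher in both.

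IRS1, the docking protein gene named first in the pathway, had the highest fold change of the 8, within the SE of that of PIK3R1. PIK3R1 was higher without shNT replicate 2 (2.24 against 2.14), without shGlud1 replicate 1 (1.94 against 1.80) and with the median-transcript trend removed (1.96 against 1.29, with PIK3CB at 1.33). IRS1 had 57 and 85 expected counts under shNT and 392 and 397 under shGlud1. In CPM it was at 4.18 and 5.55 in shNT and at 19.6 and 17.2 in shGlud1, so the groups stood well apart and the pair of shGlud1 libraries lay close together. The mean rose from 4.87 ± 0.975 CPM to 18.4 ± 1.67 CPM (SD, n = 2), a log2 fold change of 1.91 (SE 0.21, adjusted p = 2.54e-19, edgeR). Of the genes in the same length group 95.6% had a lower fold change. With the trend on longest transcript removed it was 1.27 (adjusted p = 2.3e-10). The gene lies on the reverse strand of GRCh38 chromosome 2, 226731317 to 226799759.

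IRS2, the paralog that shares the docking role, did not differ detectably between the groups. It was at 5.13 and 3.66 CPM in shNT and at 3.65 and 5.76 CPM in shGlud1, so 1 library of each group was high and 1 low. The means were 4.39 ± 1.04 and 4.70 ± 1.49 CPM (edgeR adjusted p = 0.721, log2 fold change 0.11, SE 0.26). Its sign was not fixed: it was 0.64 under total counts (adjusted p = 0.0441), -0.51 with the longest-transcript trend removed (0.0679) and -0.62 with the median-transcript trend removed (0.0278). Without shGlud1 replicate 2 it was -0.26, and without shNT replicate 2 it was -0.12, with no call in either. The gene lies on the reverse strand of chromosome 13, 109752698 to 109786568.

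The balance of the IRS pair was also read within each library, where scaling between libraries plays no part. The ratio of IRS1 to IRS2 counts per kb of longest transcript was 0.683 and 1.27 in shNT and 4.5 and 2.51 in shGlud1. In both shGlud1 libraries IRS1 exceeded IRS2, and in the shNT libraries the order differed between replicates. The log2 ratio was higher by 1.85 in shGlud1, against a spread between replicates of 0.617. With 2 libraries against 2 an exact permutation test cannot go below p = 0.333, so this difference is given without a test.

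The 250 bases before the RefSeq start of each IRS gene (GRCh38.p14, reverse strand) are shown because IRS1 passed the test and IRS2 did not. Capitals mark CAAAACA, the insulin response sequence known from FOXO-controlled genes, or its reverse complement TGTTTTG, and the FOXO consensus GTAAACA or its reverse complement TGTTTAC. Neither overlaps the other.
IRS1, chr2:226799821-226800070: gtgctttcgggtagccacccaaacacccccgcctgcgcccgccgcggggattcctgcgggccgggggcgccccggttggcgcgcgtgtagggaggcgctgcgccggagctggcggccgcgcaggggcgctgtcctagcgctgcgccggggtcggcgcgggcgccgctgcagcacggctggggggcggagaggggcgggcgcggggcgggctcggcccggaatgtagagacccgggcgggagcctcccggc
IRS2, chr13:109786584-109786833: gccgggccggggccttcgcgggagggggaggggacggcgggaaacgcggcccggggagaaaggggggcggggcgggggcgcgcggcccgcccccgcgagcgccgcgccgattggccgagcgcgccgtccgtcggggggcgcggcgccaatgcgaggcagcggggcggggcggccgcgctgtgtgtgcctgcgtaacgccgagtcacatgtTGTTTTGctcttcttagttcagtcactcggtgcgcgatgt
The IRS1 window held neither string, and the IRS2 window held the insulin response string, which begins 40 bases before the start. On both strands, 4.30% of the 35116 RefSeq windows of this size held CAAAACA and 2.98% held GTAAACA. Of the 16 windows of the 8 genes, 1 held the first (IRS2) and 1 the second (PIK3CA). A match is a string of letters and not a bound site, and a lack of one says only that these letters are not in this window.

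PIK3CA encodes the catalytic subunit p110alpha, and its window was the one with the FOXO consensus. The 30 bases around the match, 149 bases before the RefSeq start on the forward strand, with the match in capitals, are as follows. Of these bases 24 also lie in an exon of another GENCODE 29 transcript of the gene.
PIK3CA, chr3:179148196-179148225: gagttcgttgttTGTTTACacgatgtgagc
PIK3CA stood at 4.51 and 3.79 CPM in shNT and at 6.15 and 8.73 CPM in shGlud1. All shGlud1 values exceeded all shNT values, and shGlud1 replicate 2 was the highest. The mean rose from 4.15 ± 0.504 to 7.44 ± 1.82 CPM (edgeR adjusted p = 0.00136, log2 fold change 0.84, SE 0.24). This was the least firm of the 5 rises. The call ended without shGlud1 replicate 2 (0.57, adjusted p = 0.0849), without shNT replicate 2 (0.71, 0.0531) and with the longest-transcript trend removed (0.20, 0.480). Its exons overlap those of KCNMB3 on the opposite strand by 3403 bases, and KCNMB3 held 0 to 3.89 counts. The gene spans chromosome 3, 179148114 to 179240093.

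PIK3CB, which encodes the catalytic subunit p110beta, rose more firmly. It was at 6.15 and 5.29 CPM in shNT and at 13.2 and 17.3 CPM in shGlud1, with a clear gap between the groups. The mean went from 5.72 ± 0.608 to 15.2 ± 2.88 CPM (edgeR adjusted p = 4.62e-11, log2 fold change 1.42, SE 0.21), and 0.94 remained with the length trend removed (adjusted p = 3.56e-06). PIK3CB lies on the reverse strand of chromosome 3, 138652699 to 138834938. Within libraries the ratio of PIK3CA to PIK3CB per kb was 0.477 and 0.467 in shNT and 0.303 and 0.329 in shGlud1. PIK3CB was thus the more abundant catalytic transcript of this pair in every library, and by more in shGlud1. The log2 ratio was lower by 0.58 in shGlud1 (a change of -0.58), with a spread between replicates of 0.0606.

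PIK3R1, the gene of the p85alpha regulatory subunit that binds phosphorylated IRS proteins, had few reads in the control. It had 19 and 36 expected counts in shNT and 117 and 170 in shGlud1. In CPM these were 1.39 and 2.35 against 5.85 and 7.38, so each shGlud1 library lay above each shNT library. The mean rose from 1.87 ± 0.679 to 6.61 ± 1.08 CPM (edgeR adjusted p = 1.81e-09, log2 fold change 1.81, SE 0.29), or 1.24 with the length trend removed (adjusted p = 2.58e-05). Leaving out 1 library at a time gave 1.49 to 2.24, called each time. The ratio of PIK3R1 to the sum of PIK3CA and PIK3CB, per kb, was 0.129 and 0.256 in shNT and 0.287 and 0.271 in shGlud1. The second shNT library lay close to the shGlud1 libraries, and the change of 0.62 on the log2 scale was little above the spread between replicates of 0.494. PIK3R1 lies on the forward strand of chromosome 5, 68215720 to 68301821.

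**Figure D2:**
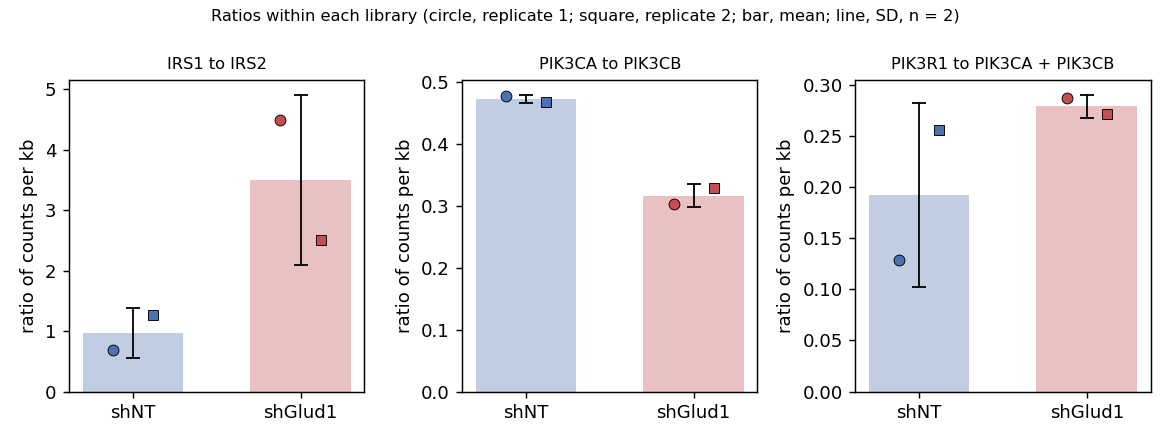
Ratios of counts per kb of longest transcript within each library, for IRS1 to IRS2, PIK3CA to PIK3CB and PIK3R1 to PIK3CA plus PIK3CB, each on a linear axis from 0. Circles are replicate 1, squares replicate 2, bars the mean and lines the SD (n = 2). IRS1 to IRS2 lies between 0.683 and 1.27 in shNT and between 2.51 and 4.5 in shGlud1.

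AKT1, the kinase that PI3K activates, was by far the most abundant of the 8. It was at 317 and 315 CPM in shNT and at 283 and 252 CPM in shGlud1. Both shGlud1 libraries lay below both shNT libraries, yet the difference did not pass (edgeR adjusted p = 0.122, log2 fold change -0.24, SE 0.14). Its direction depended on scaling. Under total counts it was called as higher (0.28, adjusted p = 0.0214), and it was called as lower by DESeq2 (-0.29, 0.0346), without shGlud1 replicate 1 (-0.34, 0.00732) and with the length trend removed (-0.86, 4.46e-11). That last value rests on a longest transcript of 8396 bases, while the longest APPRIS principal transcript has 3916, with which the value was -0.56 (adjusted p = 7.55e-06). The antisense gene AL583722.2 overlaps AKT1 exons by 663 bases and held between 383 and 529 counts, and the library kit does not mark strand, so some reads may be shared. AKT1 lies on chromosome 14, 104769349 to 104795751, reverse strand.

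FOXO1 was the least abundant of the 8 and too thinly covered for a firm statement. It had 2 and 6 counts in shNT and 11 and 17 in shGlud1, or 0.147 and 0.392 CPM against 0.550 and 0.738 CPM. The shGlud1 values were the higher ones, but the exact 95% Poisson interval of 6 counts (2.20 to 13.1) takes in 11, and these intervals cover counting error only. The log2 fold change of 1.22 had an SE of 0.72 (adjusted p = 0.132, edgeR), and it was at 0.77 with the length trend removed (0.368) and called under total counts (1.73, 0.0248). FOXO1 lies on chromosome 13, 40469953 to 40666597, reverse strand.

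FOXO3 was the better expressed FOXO gene of the pair and rose. It was at 6.73 and 7.68 CPM in shNT and at 13.7 and 15.8 CPM in shGlud1. The groups were separated by more than the spread inside either. The mean went from 7.20 ± 0.669 to 14.8 ± 1.52 CPM (edgeR adjusted p = 8.04e-07, log2 fold change 1.04, SE 0.20). Removing the length trend brought it to 0.45 (adjusted p = 0.0285), and removing length and GC trends brought it to 0.34, no longer called (0.0733). FOXO3B on chromosome 17, a processed pseudogene that can share reads with FOXO3, held 1.02 and 12.1 counts in shNT and 26.9 and 31.6 in shGlud1, and with its counts added FOXO3 was at 1.07. The ratio of FOXO1 to FOXO3 per kb overlapped between the groups, at 0.0279 and 0.0654 in shNT and 0.0514 and 0.0597 in shGlud1. FOXO3 spans chromosome 6, 108559835 to 108684774, forward strand.

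Ordered by level per kb of longest transcript, AKT1 led in shNT at 37.6 ± 0.152 CPM per kb (80.7 by its principal transcript). FOXO3 (0.981) and PIK3CB (0.967) followed with no difference beyond their spread, then IRS2 (0.540), IRS1 (0.501) and PIK3CA (0.456), which also overlapped. PIK3R1 (0.267) and FOXO1 (0.0470) came last. In shGlud1 the level per kb was 31.8 for AKT1, 2.57 for PIK3CB, 2.01 for FOXO3, 1.90 for IRS1, 0.943 for PIK3R1, 0.818 for PIK3CA, 0.578 for IRS2 and 0.112 for FOXO1. There IRS1 overlapped FOXO3, and PIK3CA overlapped both PIK3R1 and IRS2. IRS1 overlapped IRS2 and PIK3CA in shNT and stood above both in shGlud1. PIK3R1 lay below IRS2 in shNT (0.199 and 0.336 against 0.630 and 0.449 CPM per kb) and above it in shGlud1 (0.834 and 1.05 against 0.448 and 0.708).

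**Figure D3:**
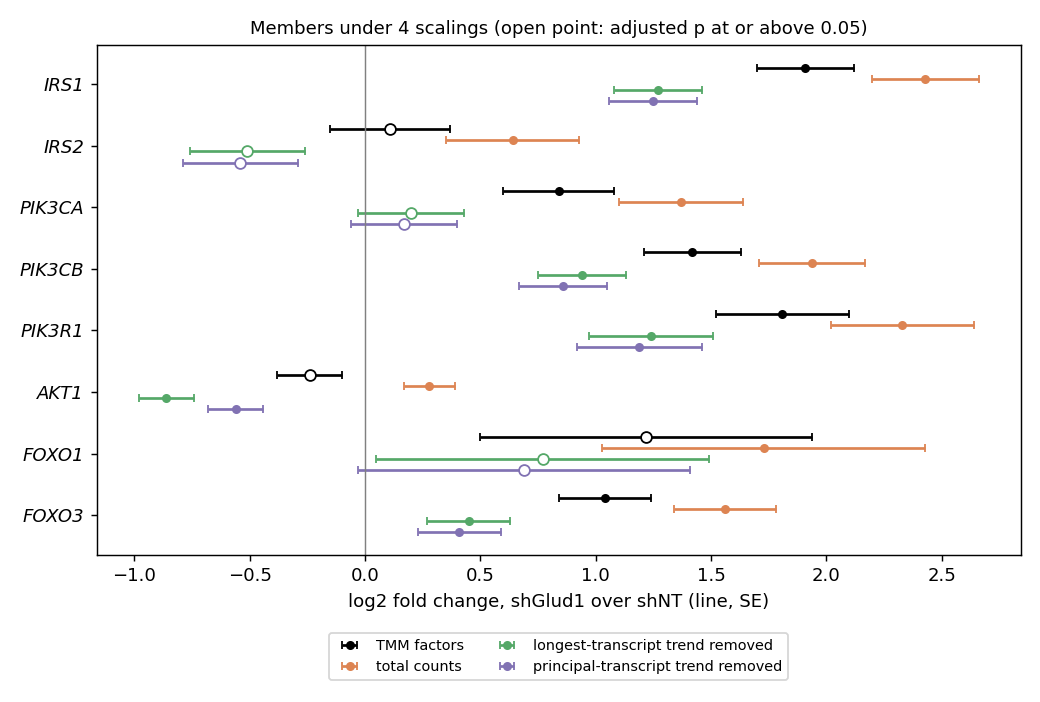
Log2 fold change of each gene, shGlud1 over shNT, with its SE as a line, under TMM factors (black), total counts (orange) and removal of a smooth trend on longest (green) or principal (purple) transcript length. Open points did not pass at an adjusted p of 0.05. IRS1, PIK3CB, PIK3R1 and FOXO3 stay above 0 and called under all 4, while IRS2 and AKT1 change sign.

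**Figure D4:**
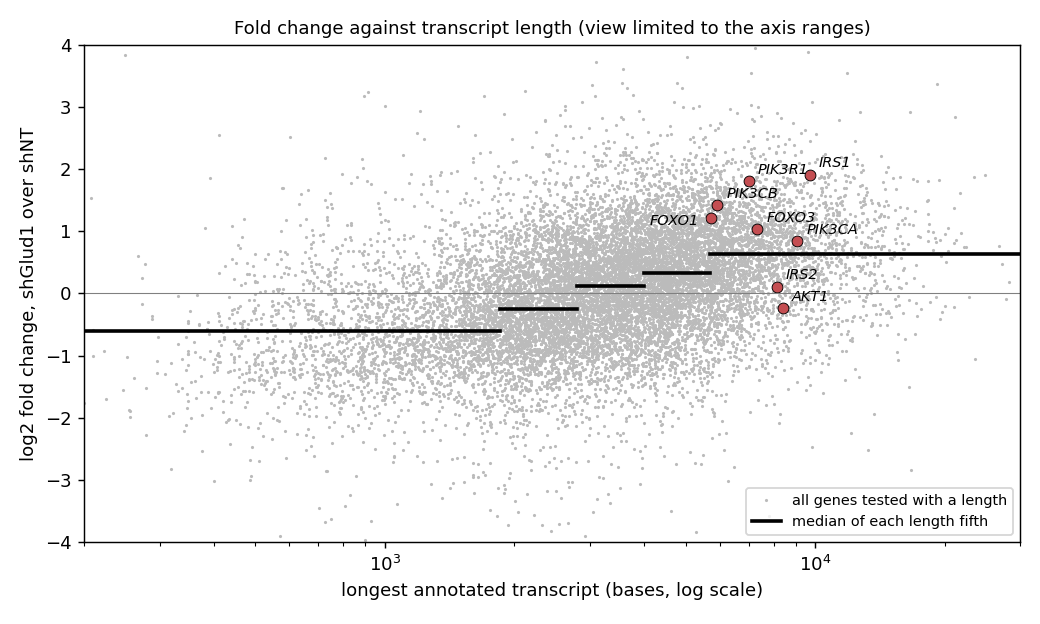
Log2 fold change of the tested genes with a known length that fall within the axis ranges (grey) against its longest transcript in bases on a log axis, with the median of each of 5 length groups as a black line and the 8 genes in red. The 8 genes all lie in the longest group, whose median is 0.63, and IRS2 (0.11) and AKT1 (-0.24) lie below that median.

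By the rule of nearest profile, the 3 genes closest to IRS1 over the 4 libraries were ANKRD34A, TMEM151B and KIAA1671, at distances of 0.041, 0.041 and 0.088 between centred log2 levels. Those closest to AKT1 were VEGFB (0.013), REXO1 (0.017) and FANCE (0.020). With 4 libraries many genes share a profile, so these are descriptions only.

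Above the IRS proteins, 3 receptor genes rose and 5 binding protein genes fell. Of 13 genes for ligands, receptors and binding proteins 9 were tested, and 3 rose and 5 fell (33.3% and 55.6%, against 31.9% and 29.1% of all genes), with a median log2 fold change of -0.54 against 0.06 for all genes. The genes that rose and those that fell also differed in length. The longest transcripts of the 3 that rose have 8954 to 14044 bases, and those of the 5 that fell 1177 to 2412 bases, a range in whose length groups 8.09% to 19.5% of genes rose and 40.3% to 53.4% fell. With the trend on longest transcript length removed 2 rises and 4 falls were left, where 26.9% of all genes rose and 28.7% fell. The principal-transcript trend also left 2 and 4, and the median-transcript trend 3 and 5. With length and GC trends removed 1 rise and 2 falls were left (all genes: 27.3% and 28.2%). The part of length in this split was not tested. The insulin receptor gene INSR was at 4.03 and 3.20 CPM in shNT and at 8.85 and 9.46 CPM in shGlud1 (log2 fold change 1.34, SE 0.24, adjusted p = 1.41e-07). INSR was at 0.71 with the length trend removed (adjusted p = 0.00447). IGF2R, whose product clears IGF2, rose by 1.02, was at 0.32 with the length trend removed and lost its call at 0.23 with length and GC trends removed (adjusted p = 0.0887). IGF1R, the gene of a receptor for insulin-like growth factors, rose by 0.60, which turned to -0.08 with the length trend removed. All 5 that fell encode secreted IGF-binding proteins, among them IGFBP7 (-1.56, from 181 ± 14.9 to 61.4 ± 1.11 CPM), IGFBP6 (-1.0, called at -0.49 under total counts and not called at -0.12 with length and GC trends removed) and IGFBP3 (-0.54, which was -0.02 under total counts, adjusted p = 0.891). Of the 9 genes 3 lie in the longest length group. IGF1 had 0 counts in all libraries and IGF2 between 2 and 5, so neither ligand was tested.

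Among 16 adaptor genes that act beside the IRS proteins, 14 were tested, 7 rose and 2 fell (50.0% and 14.3%, against 31.9% and 29.1% of all genes; median 0.47). With the trend on length taken out, 5 rose and 2 fell (median 0.09), where 26.9% of all genes rose and 28.7% fell. SOS1, which couples receptors to RAS, rose by 2.05 (SE 0.30), CRKL by 1.65 and SH2B3, a gene for a negative regulator of cytokine signalling, by 1.63. Each of the 3 was called with the length trend removed as well. DOK1 (-0.40) and SH2B1 (-0.34) fell, but were at 0.12 and 0.18 under total counts. IRS4 had 0 counts in all libraries.

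Of 12 other PI3K genes 8 were tested, and 6 rose and 0 fell (75% rising, against 31.9% of all genes; median 0.96). Taking out the length trend left 4 rises, where 26.9% of all genes rose. PIK3CD, the gene of the catalytic subunit p110delta, was at 22.3 and 17.7 CPM in shNT and at 46.1 and 46.8 CPM in shGlud1 (log2 fold change 1.22, SE 0.14, adjusted p = 4.71e-16). PIK3R4, a subunit of the class III enzyme that acts in autophagy and vesicle traffic, rose by 2.03, and the class II gene PIK3C2B by 1.85. PIK3R2 and PIK3R3 encode the other p85-type and p55-type regulatory subunits. PIK3R2 rose by 0.32 (SE 0.13, adjusted p = 0.0307), with shGlud1 libraries at 57.4 and 40.3 CPM against 39.9 and 38.3 CPM, and was at -0.04 with the length trend removed. The symbol PIK3R2 has 2 rows in the table, and the values given are those of the row with the larger sum of counts. Values of the other row are not reported here. PIK3R3 was at 0.08 (adjusted p = 0.749).

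Among 14 phosphatase genes that oppose the pathway 8 rose and 1 fell (57.1% and 7.14%, against 31.9% and 29.1% of all genes; median 0.59). PTPN1, whose product dephosphorylates the insulin receptor, rose by 1.02, and the protein phosphatase 2A genes PPP2R5C and PPP2CA rose by 0.92 and 0.73. INPP5J fell by 1.55, from 14 and 22 counts to 8 and 10. Removing the length trend gave 3 rises and 5 falls among the 14 (all genes: 26.9% and 28.7%), so both counts depended on that step.

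The AKT branch was mixed. Of 22 genes 21 were tested, 10 rose and 7 fell (47.6% and 33.3%, against 31.9% and 29.1% of all genes). The share that fell is near that of all genes. The median was 0.10, and -0.14 with the length trend removed, where 5 rose and 8 fell (all genes: 26.9% and 28.7%). AKT2 was at -0.26 (adjusted p = 0.0796) and, like AKT1, was called as higher under total counts (0.26) and as lower with the length trend removed (-0.65). TBC1D1, an AKT substrate gene of glucose transporter traffic, rose by 1.11 and MTOR by 0.99. TRIB3, which encodes a pseudokinase that binds AKT, fell most of the pathway genes named here. It went from 377 and 372 CPM to 47.7 and 35.7 CPM (edgeR adjusted p = 3.16e-98, log2 fold change -3.17, SE 0.15). MLST8, a subunit of both mTOR complexes, fell by 1.38, and the AKT-related kinase gene SGK1 by 1.22, and these falls were called under total counts and with the length trend removed.

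Among 19 other FOXO genes and regulators of FOXO proteins 18 were tested, 13 rose and 2 fell (72.2% and 11.1%, against 31.9% and 29.1% of all genes; median 0.73). FOXO4 was at 13.2 and 12.4 CPM in shNT and at 20.2 and 21.0 CPM in shGlud1 (log2 fold change 0.69, SE 0.17, adjusted p = 0.000185). SKP2, a ubiquitin ligase subunit gene, rose by 2.51, the 14-3-3 gene YWHAZ, whose protein holds phosphorylated FOXO in the cytoplasm, by 1.23, and the deubiquitinase gene USP7 by 1.18. The methyltransferase gene PRMT1 fell by 0.82 and the deacetylase gene SIRT2 by 0.35, and SIRT2 was at 0.17 under total counts. Removing the length trend left 11 rises and 2 falls (all genes: 26.9% and 28.7%).

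Genes known as FOXO targets did not move as a block under TMM factors, though few of them fell. The list holds 32 genes, 2 of them (IRS2 and PIK3CA) from the 8. Without those, 25 of 30 were tested, and 10 rose, 2 fell and 13 did not pass (median 0.18). Rises made up 40.0%, against 31.9% of all genes, and falls 8.0%, against 29.1%. TXNIP rose by 4.33, the catalase gene CAT by 1.49, the retinoblastoma-related gene RBL2 by 1.49 and INSR as above. GADD45A (-0.67) and IGFBP1 (-0.65) fell, though neither was called under total counts (-0.14 and -0.13). IGFBP1 was at 13.3 and 12.8 CPM in shNT and at 8.95 and 7.77 CPM in shGlud1. The list with IRS2 and PIK3CA kept had 27 tested genes, with 11 rises and 2 falls under TMM factors. Scaling by total counts gave it 20 rises and 0 falls (all genes: 51.9% and 13.7%). Taking out the longest-transcript trend gave it 11 rises and 4 falls (all genes: 26.9% and 28.7%).

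**Figure D5:**
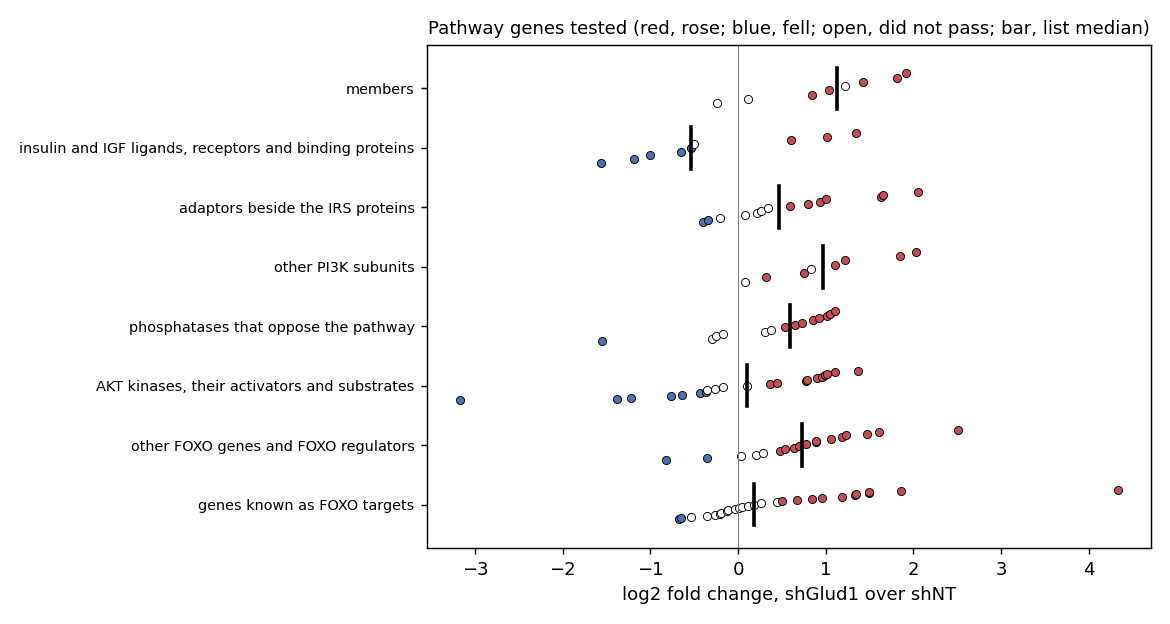
Log2 fold change, shGlud1 over shNT, of every tested gene of the 8 and of the 7 pathway lists, one row a list, with the list median as a bar. Red points rose, blue points fell and open points did not pass at an adjusted p of 0.05. The medians run from -0.54 for ligands, receptors and binding proteins to 0.96 for other PI3K subunits and 1.13 for the 8 genes.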

How the data were processed

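The authors deposited expected counts, estimated read counts per gene, of which 20.1% of values above 0 are not whole. Bowtie 0.12.2 and the mouse build mm8 are named per the submitters' processing notes, yet all 57820 rows have human Ensembl IDs and 0 have mouse IDs, which leaves the genome build uncertain. The counting program is not given in the sources used here. Per the labels' protocols, poly-A RNA was made into libraries with a TruSeq V2 kit and 12 cycles of PCR.

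Counts were rounded and tested in edgeR 4.0.16 (R 4.3.3) with filterByExpr (minimum count 10), TMM factors (0.826 to 1.245) and quasi-likelihood fits (robust setting, no replicate block). SEs were derived as the size of the log2 fold change over the root of the F statistic. On simulated counts of 14616 genes for this comparison it recovered 39% of 1.5-fold, 62.1% of 2-fold and 93.3% of 4-fold changes, with 13 false calls. Simulated counts that also carried a length trend gave 4899 false calls, and 6 after its removal. The simulations changed 200 genes, while 8919 were called in the data. The added trend was linear, equal within each group and on the same transcript length that was then removed. These counts of false calls therefore cannot show how well the trend in the data was removed. Length trends were removed as offsets (lowess, span 0.3). Positions and lengths came from GENCODE 29 (GRCh38) by Ensembl ID (52338 rows matched), promoters from RefSeq (GRCh38.p14). Replicates differed by more than sampling noise (chi-square per degree of freedom 5.62 and 13.9).

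Alternatives were DESeq2 1.42.0, limma-voom 3.58.1, other factors and filters, a replicate block and leaving out each library. The trends on median and principal transcripts and the FOXO3B sum were chosen after seeing the data. Genes named were the 8, fixed pathway genes and up to 3 rises and 3 falls of each list by lowest p. The 8 genes and the lists were chosen with earlier results of these data known. Nearest profiles used log2(CPM + 0.5). Values of some genes on the lists are not reported here, though the list counts include them.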

Additional observations from a re-analysis of the deposited data

How the results depend on the processing

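IRS1 (1.21 to 2.43), PIK3CB (0.85 to 1.94) and PIK3R1 (1.10 to 2.33) kept their direction and call under all 16 alternatives, and GLUD1 did too (-1.21 to -0.45). PIK3CA lost its call at 0.20 with the longest-transcript trend removed, 0.44 with length and GC trends removed and 0.17 with the principal-transcript trend removed, and it ranged from 0.57 to 1.05 when 1 library was left out. FOXO3 lost its call at 0.34 with length and GC trends removed and at 0.33 with the median-transcript trend removed. AKT1 gained a call downward at -0.29 with DESeq2, -0.86, -0.58, -0.31 and -0.56 with the longest-transcript, length and GC, median-transcript and principal-transcript trends removed, and it ranged from -0.34 to -0.15 when 1 library was left out. Under total counts AKT1 turned to 0.28, FOXO1 was called at 1.73 and IRS2 at 0.64. IRS2 turned to -0.51, -0.31, -0.62 and -0.54 with the same trends removed, in the same order, and ranged from -0.26 to 0.38 when 1 library was left out. The cause was not tested. FOXO1 could not be tested when at least 1 CPM was required in 2 libraries.

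Fitting a replicate block changed no call of the 8 genes (IRS1 1.91, IRS2 0.10, PIK3CA 0.83, PIK3CB 1.41, PIK3R1 1.83, AKT1 -0.24, FOXO1 1.25, FOXO3 1.04). Same-numbered libraries hardly deviated together (correlation 0.041), and the labels give no shared origin for a number.

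The number of changed genes ran from 7047 to 9592, and the share of rises among them was 52.3%, or 79.1% under total counts. The number changed among ligands, receptors and binding proteins was 5 under total counts and 3 with length and GC trends removed, in place of 8. Among FOXO targets it was 20 under total counts, in place of 13. Leaving out 1 library gave 11 to 19 changed genes in the AKT list and 5 to 11 among the adaptors. The median of the AKT list turned to -0.14 with the longest-transcript trend removed, -0.14 with length and GC trends removed, -0.18 with the principal-transcript trend removed and -0.10 without shNT replicate 1. For a ratio of 1 gene to another, the choice of length cancels in the log2 change, so raw counts, merged exons or principal transcripts cannot alter it. The ratio of PIK3R1 to PIK3CA plus PIK3CB could move. Its change ran from 0.62 to 0.67 over these choices, against a spread between replicates of 0.494. Depth limits FOXO1 most, at 2 to 17 counts.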

Other observations

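With TMM factors, some paralogs and partners further down the pathway had fold changes of opposite sign, though TSC2 and RICTOR were not called as changed. The genes described here and in the next paragraph, other than MTOR and MLST8, were chosen after their values were seen. GSK3A, one of the glycogen synthase kinase genes, stood at 155 and 159 CPM in shNT and at 108 and 92.7 CPM in shGlud1 (log2 fold change -0.64, SE 0.13, adjusted p = 3.23e-06, edgeR). GSK3B was at 9.82 and 15.4 CPM against 20.2 and 23.3 CPM (0.78, SE 0.17, adjusted p = 1.6e-05). Their longest transcripts have 3524 and 7711 bases. With the length trend removed GSK3A was at -0.78 (adjusted p = 2.33e-09) and GSK3B at 0.18 (0.338), and under total counts they were at -0.13 (0.307) and 1.30 (4.16e-08).

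TSC1 and TSC2 encode the partners of the complex that restrains mTORC1. TSC1 was at 11.0 and 11.6 CPM in shNT and at 21.6 and 23.8 CPM in shGlud1 (1.01, SE 0.17, adjusted p = 2.75e-08). TSC2 was at 28.2 and 26.1 CPM against 27.1 and 21.0 CPM (-0.17, SE 0.15, adjusted p = 0.311). With the length trend removed they were at 0.38 (0.0374) and -0.68 (9.41e-06). Under total counts both were above 0, at 1.53 and 0.34 (edgeR adjusted p = 1.16e-10 and 0.0629). Of the mTOR complex genes, MTOR (0.99) and MAPKAP1 (0.36, adjusted p = 0.0108) rose and MLST8 (-1.38) fell, while RICTOR was at -0.36 (adjusted p = 0.226), or -1.01 with the length trend removed (0.000134). MAPKAP1 was at 0.25 with the length trend removed (0.0733). Under total counts RICTOR was at 0.17 (edgeR adjusted p = 0.614), above 0 like MTOR (1.51) and MAPKAP1 (0.89), while MLST8 was at -0.86. The differences between paralogs or partners were not tested.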
